A study of Mus musculus with 10 samples.

Results

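The genes described here are 8 early genes of activated lymphocytes, Egr1, Egr2, Egr3, Ier2, Ier3, Ier5, Btg2 and Zfp36, followed through 10 RNA-seq libraries of mouse Tregs, the CD4+ T cells that carry the transcription factor Foxp3 and restrain immune responses. They were chosen by name, with their counts in all 10 libraries and their fold changes already known, from a deposited table of 55401 gene IDs. All 8 had an ID in that table, and all 8 passed the low-count filter. The strain was C57BL/6J, and Tregs were recognised by hCD2, a human surface protein that the study's Foxp3-hCD2 knock-in mice place under Foxp3. SP-Tregs (n = 2 libraries) came from the spleen without treatment. Ischemia-Tregs (n = 2) came from the brain 28 days after a transient occlusion of the middle cerebral artery, for which the study used male mice. The iB-Tregs were Tregs sorted from spleen and lymph nodes and then kept for 6 days on astrocytes, which the study's methods also call glial cells. iB-Treg(A) (n = 2) had anti-CD3 and anti-CD28 antibodies (2 μg/ml of each) and IL-2 (20 ng/ml). By the study's methods, the antibodies of the co-cultures were given on the first day only. iB-Treg(B) (n = 2) had in addition the alarmin IL-33 (20 ng/ml) and serotonin (10 μM). iB-Treg(C) (n = 2) had on top of these the chemokines CCL1 and CCL20 (20 ng/ml of each). The mice were 8 to 12 weeks old. hCD2+ cells were isolated on magnetic columns before RNA was purified. Nothing states that both libraries of 1 group are from separate mice or cultures, so a p-value here covers the spread of libraries alone, and that spread may be technical.

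Early genes are switched on within minutes of a signal, without new protein synthesis, and their transcripts are short-lived. In T cells, the signal from the antigen receptor runs through calcium and through the MAP kinase ERK, and ERK acts on serum response factor and its ternary complex partners, which bind CArG boxes in many early gene promoters. Egr1, Egr2 and Egr3 encode zinc finger transcription factors of 1 family. Egr2 and Egr3 are linked to T cell anergy and to restraint of effector T cells. Ier2, Ier3 and Ier5 are immediate early response genes, and Ier3 is a target of NF-kB that affects cell death and ERK signalling. Btg2 is an antiproliferative gene that p53 induces and whose product works with the deadenylase complex. Zfp36 encodes tristetraprolin, which binds AU-rich elements in the 3′ untranslated region of cytokine mRNAs and sends them to decay.

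The total count was 5186728 to 6634583 per library from spleen and brain, and 15628261 to 16388161 per iB-Treg library. In the deposited table the spleen and brain counts stand a few rows below their gene ID. They were moved back by 0 rows for Ier3 and Btg2, by 1 row for Egr1, Egr2, Egr3 and Zfp36 and by 2 rows for Ier2 and Ier5. A hidden Markov model gave the same rows for all 8. It was trained on the first 4000 rows as deposited, which hold Ier3 and Btg2, so for these genes the match is no check. The libraries differed in content too, although the study's methods name 1 preparation, a stranded poly(A) kit. Mitochondrial rRNA held 16.1% to 17.1% of the counts used in the spleen and brain libraries and 0.128% to 0.178% in the iB-Treg libraries, so a difference between an iB-Treg group and spleen or brain cannot be told apart from this difference in library. T cell markers were present throughout, and Foxp3 stood at 715 ± 20.1 CPM (SD, n = 2) in SP-Tregs, 819 ± 32.1 in Ischemia-Tregs and 296 ± 0.987, 242 ± 3.45 and 243 ± 3.84 in iB-Treg(A), (B) and (C). CPM are counts scaled to library size by TMM, and per-kb values divide them by the exonic length in the table. In such bulk samples, fewer cells of a type and less RNA per cell cannot be told apart.

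The 8 genes shared a compact build. They spanned 1240 (Ier3) to 6714 bases (Egr2) of the GRCm38 genome in GENCODE vM21, against a median of 24423 bases for the 11949 protein-coding genes tested. With the exons of all annotated transcripts of a gene merged, they had 1 to 5 separate exon blocks against a median of 10. Ier2, Ier5 and Zfp36 consisted of 1 block, which does not mean that each of their transcripts is without introns. The exons of Zfp36 overlap those of the antisense gene Gm44710, whose reads can be told from those of Zfp36 only if the counting used strand, which is not stated.

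**Figure D1:**
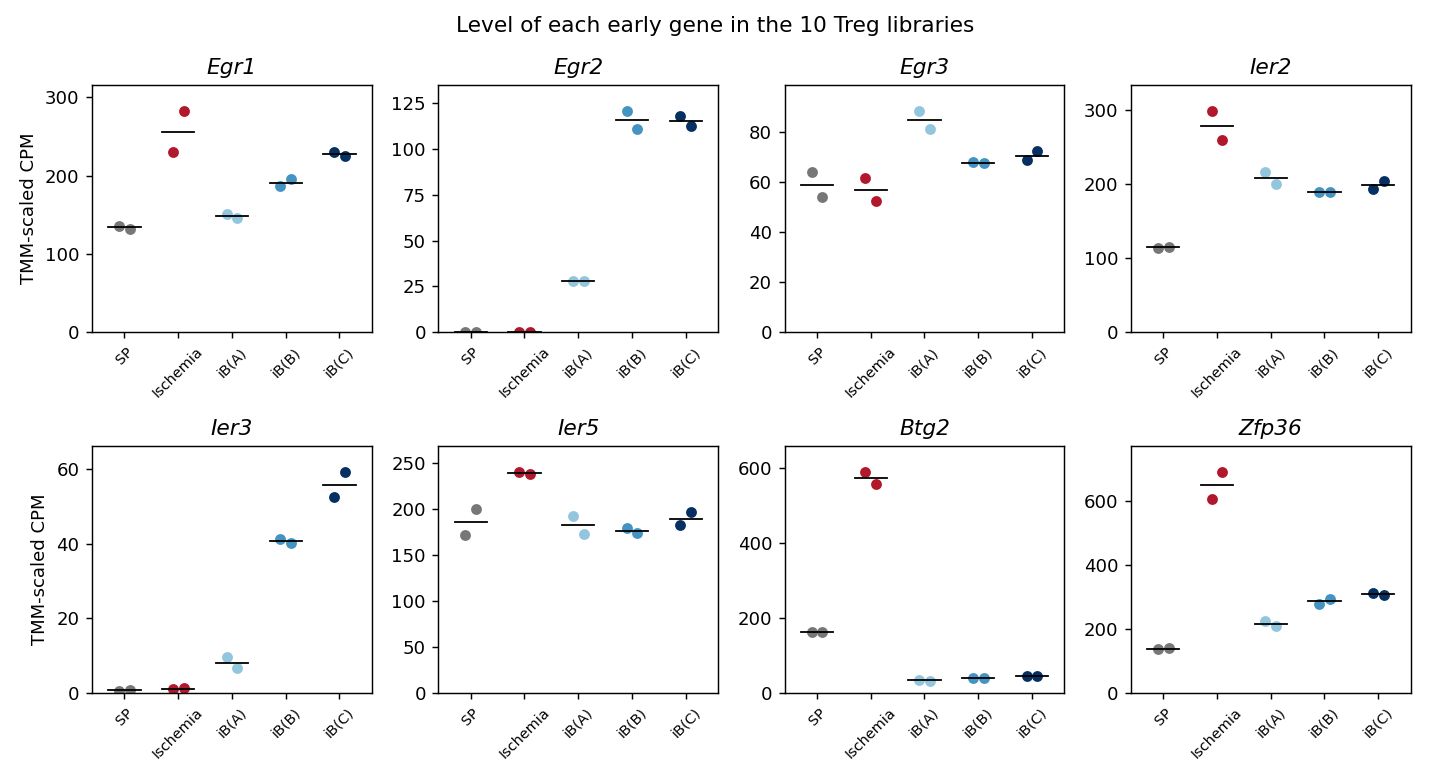
TMM-scaled CPM (linear axes from 0) of the 8 early genes in each library. Points are libraries and black lines are means of n = 2. Btg2 and Zfp36 stand highest in Ischemia-Tregs, at 574 and 648 CPM, and Egr2 and Ier3 are near 0 in the libraries from spleen and brain and highest in iB-Treg(B) and (C).

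Egr1, the most widely induced gene of its family, lies at chr18:34859823-34864984 on the plus strand. It was found at 135 and 132 CPM in SP-9 and SP-10 (SP-Treg), at 230 and 282 CPM in Ischemia-4 and Ischemia-3 (Ischemia-Treg), at 151 and 146 CPM in iB-Treg(A), at 186 and 195 CPM in iB-Treg(B) and at 230 and 225 CPM in iB-Treg(C). The order was thus Ischemia-Treg, iB-Treg(C), iB-Treg(B), iB-Treg(A) and SP-Treg, and of the neighbours in it Ischemia-Treg and iB-Treg(C) overlapped. Groups without overlap were common among all 13000 genes. The share was 58.2% for Ischemia-Treg against SP-Treg, 63.9% for iB-Treg(B) against (A) and 46.2% for iB-Treg(C) against (B). It was 85.6% and 85.7% for iB-Treg(A) and (B) against SP-Treg and 82.9% for iB-Treg(B) against Ischemia-Treg. Overlap is therefore only a description here and below. The gap between the Ischemia-Treg libraries was wide for Egr1, with an SD of 36.9 CPM.

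Egr2 lies at chr10:67535475-67542188 on the plus strand. Among the co-cultured Tregs it was found at 27.8 and 27.9 CPM in iB-Treg(A), at 120 and 111 CPM in iB-Treg(B) and at 118 and 113 CPM in iB-Treg(C). The iB-Treg(A) libraries lay far below the other 4, which overlapped. Its counts in SP-9, SP-10, Ischemia-4 and Ischemia-3 were 1, 0, 0 and 0, and these are not read here as absence of the transcript. Ado, the next protein-coding gene downstream, which encodes a thiol dioxygenase, also had only 0, 2, 0 and 0 counts there, against 446 to 675 in each iB-Treg library. The nearest protein-coding genes on either side at 10 CPM or more in every iB-Treg library were Jmjd1c and Arid5b. They were well covered in the same 4 libraries, Jmjd1c at 255 to 307 CPM and Arid5b at 189 to 321 CPM. Zfp365, which lies between Ado and Arid5b and is below that level in the iB-Treg libraries, had 26, 29, 45 and 45 counts there. Of 8279 protein-coding genes at 10 CPM or more in every iB-Treg library, 63 had at most 3 counts over the 4 libraries from spleen and brain. In the chromosome order of these 8279 genes, which leaves out all others, 21 of the 63 stood next to another of them. For this reason no fold of Egr2 against spleen or brain is given, and what caused the gap was not tested.

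**Figure D2:**
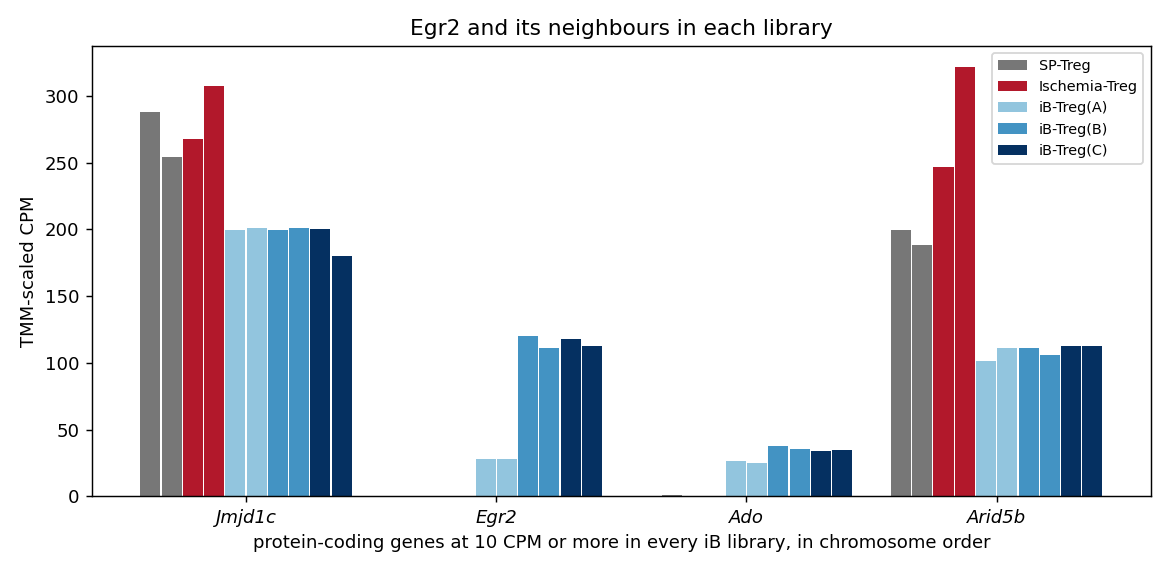
TMM-scaled CPM (bars, 1 per library, from 0) of Egr2 and of the nearest protein-coding genes at 10 CPM or more in every iB-Treg library, in chromosome order. Egr2 and Ado are at or near 0 in the 4 spleen and brain libraries, while Jmjd1c and Arid5b reach 189 to 321 CPM there.

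The Egr2 start region is shown because Egr2 moved most among the Egr genes in culture. RefSeq (GRCm38.p6) gives Egr2 5 start sites, each with a window of 300 bases from 250 before to 50 after the start. Of these, 3 overlapping windows hold the same CArG box at chr10:67537797-67537806, 1 holds another at chr10:67537494-67537503, and the last, at chr10:67535249-67535548, holds no CArG box but a pair of overlapping NF-kB matches at positions -117 to -107. The window at chr10:67537619-67537918, plus strand, has it at positions -72 to -63 from the start, in capitals.
Egr2 promoter: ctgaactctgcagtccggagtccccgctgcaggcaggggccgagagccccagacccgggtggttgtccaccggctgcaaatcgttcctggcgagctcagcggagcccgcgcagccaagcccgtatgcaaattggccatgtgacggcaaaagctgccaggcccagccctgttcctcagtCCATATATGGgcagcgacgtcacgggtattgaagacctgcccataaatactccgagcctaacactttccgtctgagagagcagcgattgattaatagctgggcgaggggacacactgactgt
A CArG box, searched on both strands, was in 1.63% of 32851 such windows.

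Egr3, at chr14:70077203-70082614 on the plus strand, showed the narrowest range of the Egr genes. It was found at 63.8 and 54.0 CPM in SP-9 and SP-10, at 61.7 and 52.2 CPM in Ischemia-4 and Ischemia-3, at 88.2 and 81.1 CPM in iB-Treg(A), at 67.8 and 67.5 CPM in iB-Treg(B) and at 68.8 and 72.3 CPM in iB-Treg(C). Spleen and brain overlapped, and iB-Treg(A) was the highest group. On the per-kb scale, levels in iB-Treg(A) were 33.1 for Egr1, 19.2 for Egr3 and 8.20 for Egr2. In iB-Treg(B) they were 42.5 for Egr1, 34.1 for Egr2 and 15.4 for Egr3, so that Egr2 and Egr3 changed places in the order.

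Ier2, a nuclear protein of the immediate early response, lies at chr8:84661331-84662852 on the minus strand. It was found at 114 and 116 CPM in SP-9 and SP-10, at 299 and 259 CPM in Ischemia-4 and Ischemia-3, at 217 and 201 CPM in iB-Treg(A), at 189.2 and 189.3 CPM in iB-Treg(B) and at 194 and 205 CPM in iB-Treg(C). Ischemia-Treg was the highest and SP-Treg the lowest group, while iB-Treg(A) and (C) overlapped. On the per-kb scale Ier2 was the most abundant of the 8 genes in each group but Ischemia-Treg, with 75.2 in SP-Tregs and 137, 124 and 131 in iB-Treg(A), (B) and (C). In Ischemia-Tregs the per-kb levels of Btg2 (209 ± 8.19), Zfp36 (187 ± 16.8) and Ier2 (183 ± 18.2) lay together. Both statements rest on the deposited exonic lengths. For Zfp36 that length, 3470 bases, equals the whole span of the gene. A shorter transcript would give Zfp36 a higher per-kb level, so its rank against Ier2 and Btg2 is not settled.

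Ier5, at chr1:155096361-155099636 on the minus strand, encodes a partner of heat shock factor and protein phosphatase 2A. It was found at 171 and 200 CPM in SP-9 and SP-10, at 240 and 237 CPM in Ischemia-4 and Ischemia-3, at 192 and 173 CPM in iB-Treg(A), at 179 and 174 CPM in iB-Treg(B) and at 182 and 196 CPM in iB-Treg(C). Only Ischemia-Treg stood apart, and the other 4 groups overlapped with their neighbours in the order.

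Ier3, at chr17:35821684-35822923 on the plus strand, was hardly counted in spleen and brain, and its libraries did not overlap between the 3 cultures. Its counts were 3, 3, 4 and 4 in SP-9, SP-10, Ischemia-4 and Ischemia-3, which is 0.599, 0.853, 0.972 and 1.26 CPM. It was found at 9.58 and 6.70 CPM in iB-Treg(A), at 41.3 and 40.2 CPM in iB-Treg(B) and at 52.4 and 59.1 CPM in iB-Treg(C). No group overlapped with the next in this order, which was common among all genes (shares are given with Egr1). The neighbour of Ier3 on the chromosome, Flot1, was counted in the same libraries, with 73 to 198 counts in each. This cannot settle whether the low counts of Ier3 reflect its transcript. Of the 63 genes with at most 3 counts described with Egr2, only 33.3% stood next to another of them. Its promoter is shown because Ier3 moved most of all 8 genes between iB-Treg(A) and (B). The window at chr17:35821463-35821762, plus strand (RefSeq, GRCm38.p6), holds a match to the NF-kB motif, read on the minus strand, at positions -92 to -83, in capitals.
Ier3 promoter: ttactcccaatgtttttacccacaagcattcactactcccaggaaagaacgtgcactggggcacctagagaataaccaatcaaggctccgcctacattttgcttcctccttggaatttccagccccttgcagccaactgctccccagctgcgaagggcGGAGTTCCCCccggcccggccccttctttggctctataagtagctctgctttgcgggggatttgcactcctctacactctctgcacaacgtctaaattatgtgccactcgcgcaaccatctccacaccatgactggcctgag
This motif was in 8.46% of all windows on either strand.

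Btg2, at chr1:134075170-134079120 on the minus strand, was highest in the brain and lowest in co-culture. It was found at 162.2 and 161.5 CPM in SP-9 and SP-10, at 589 and 558 CPM in Ischemia-4 and Ischemia-3, at 35.03 and 32.80 CPM in iB-Treg(A), at 41.10 and 41.06 CPM in iB-Treg(B) and at 46.0 and 44.4 CPM in iB-Treg(C). The 3 co-cultured groups lay below the spleen and far below the brain, and no 2 groups overlapped (shares of all genes are given with Egr1). Its window at chr1:134079106-134079405, minus strand (RefSeq, GRCm38.p6), is shown for contrast with the 2 promoters above. It holds a cAMP response element, TGACGTCA, at positions -166 to -159, in capitals.
Btg2 promoter: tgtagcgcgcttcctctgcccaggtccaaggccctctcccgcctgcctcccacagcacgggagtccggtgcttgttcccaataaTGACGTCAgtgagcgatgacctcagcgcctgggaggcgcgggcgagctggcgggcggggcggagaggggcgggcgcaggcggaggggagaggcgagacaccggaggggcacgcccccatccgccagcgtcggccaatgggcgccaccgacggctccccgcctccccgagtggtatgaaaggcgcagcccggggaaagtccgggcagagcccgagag
This element was in 1.79% of all windows on either strand, and no CArG box or NF-kB motif was found in the Btg2 window.

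Zfp36, at chr7:28376784-28380253 on the minus strand, was found at 137 and 139 CPM in SP-9 and SP-10, at 607 and 689 CPM in Ischemia-4 and Ischemia-3, at 223 and 209 CPM in iB-Treg(A), at 279 and 294 CPM in iB-Treg(B) and at 313 and 306 CPM in iB-Treg(C). The order was Ischemia-Treg, iB-Treg(C), iB-Treg(B), iB-Treg(A) and SP-Treg, with no overlap between neighbours. Shares of all genes without overlap are given with Egr1, and between iB-Treg(B) and (C) Zfp36 did not pass the test. Its window at chr7:28379179-28379478, minus strand, holds a CArG box at positions -58 to -49 and a match to the EGR motif GCGGGGGCG at positions -105 to -97, the latter in 2.91% of all windows. The Ier5 window held no match to any of the 6 motifs searched, which besides CArG, NF-kB, TGACGTCA and GCGGGGGCG were AP-1 (TGANTCA) and TATAAA. RefSeq entries were matched for 5 of the 8 genes, without Egr1, Egr3 and Ier2.

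Tristetraprolin binds the core TATTTAT, and the longest annotated 3′ untranslated regions of 3 of the 8 genes held it, Ier3 with 4 matches, Zfp36 with 3 and Btg2 with 1. Sites are shown with the core in capitals and 9 bases on each side, as DNA on the strand of the transcript.
Ier3, chr17:35822533-35822557: tgtatgtaaTATTTATtctaactta
Ier3, chr17:35822588-35822612: taacacagaTATTTATtacgattta
Zfp36, chr7:28376953-28376977: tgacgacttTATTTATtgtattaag
Btg2, chr1:134077251-134077275: atgaagagcTATTTATacatgtttt
The core was in 29.9% of the 11899 tested protein-coding genes with such a region, and the longer TTATTTATT, found in Zfp36, was in 8.14%. No match says only that these letters are not in the region.

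The comparison of Ischemia-Tregs with SP-Tregs asks how Tregs of the injured brain differ from those of the spleen. Zfp36 was 4.70-fold higher in the brain (log2 fold change 2.23, SE 0.08), Btg2 3.54-fold (1.83, SE 0.07), Ier2 2.44-fold (1.29, SE 0.09), Egr1 1.90-fold (0.93, SE 0.09) and Ier5 1.29-fold (0.37, SE 0.09). Egr3 differed by -0.05 (SE 0.12) and Ier3 by 0.63 (SE 0.86), the latter on 14 counts in all. In edgeR's quasi-likelihood fit of all 13000 genes, these 5 genes were called higher and 0 lower at an adjusted p under 0.05, beside 20.4% of all genes called higher and 18.3% called lower. Of the 8, 0 were lower at an unadjusted p under 0.05, and DESeq2 also called 5 higher and 0 lower. Since the genes were chosen with these values known, nothing is read from the count. Without SP-9 the call of Ier5 was lost, at a log2 fold change of 0.25. The study's method for brain tissue, given for its flow cytometry, used collagenase and DNase at 37 °C, and dissociation is known to induce early genes. Of 15 tested dissociation stress genes 11 were higher and 2 lower in the brain libraries, with Fos at 554 ± 117 against 5.95 ± 4.46 CPM, Jun at 502 ± 0.574 against 21.8 ± 0.590 and Dusp1 at 1603 ± 149 against 46.6 ± 6.43. Their part in the result was not tested. The 15 microglia and macrophage markers summed to 137 to 167 CPM in brain and 58.9 to 69.7 CPM in spleen, where Tyrobp, Trem2 and P2ry12 had no count, and 11 of them were called higher in brain.

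The list of other early genes had a higher median between spleen and brain than these 8. Of 26 other immediate early genes tested, 23 were higher and 1, Myc, was lower (74.3 ± 12.1 against 132 ± 2.11 CPM) in Ischemia-Tregs, with a median log2 fold change of 4.13, also over the 24 with more than 3 counts in a group and a group without a count set to a floor of 3 counts. The median was 0.93 for the 7 early genes without Egr2 and 0.00 for all 13000 genes. Fosl2, a subunit of AP-1, stood at 1017 ± 67.5 CPM in brain and 6.66 ± 0.171 in spleen, and Nr4a2, a nuclear receptor of the early response, at 181 ± 1.24 and 2.33 ± 0.0841. Atf3, a stress-induced factor, had 239 counts in brain and 0 in spleen and was at least 93.2-fold higher. Among the relatives of the 8 genes, 7 of 8 tested were higher, median 1.23. Zfp36l2 and Zfp36l1, which bind AU-rich elements like Zfp36, stood at 2917 ± 530 against 437 ± 73.2 CPM and at 2089 ± 322 against 476 ± 8.35. Tob2 and Tob1, antiproliferative relatives of Btg2, stood at 562 ± 30.01 against 99.7 ± 15.1 CPM and at 69.0 ± 3.00 against 22.8 ± 1.65. Nab2, a corepressor of EGR proteins, was the 1 that did not pass the test (0.05).

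**Figure D3:**
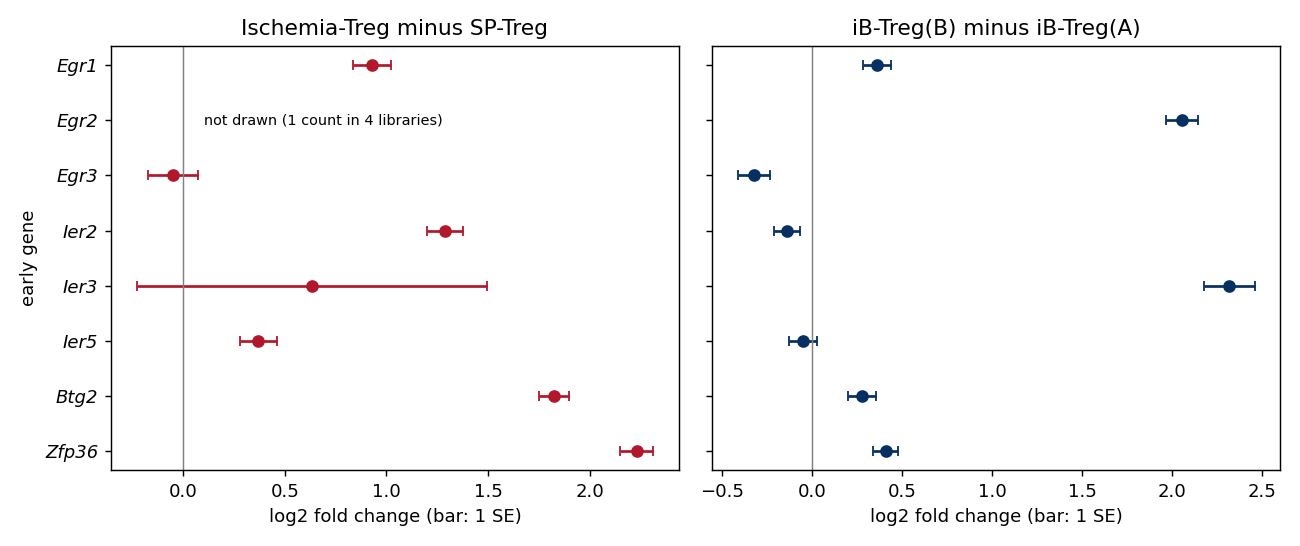
Log2 fold changes (points) with 1 SE (bars) of the early genes from the fit of all 13000 genes, for Ischemia-Treg minus SP-Treg (7 genes, Egr2 is not drawn) and iB-Treg(B) minus iB-Treg(A) (8 genes), which share no library. Zfp36 (2.23) and Btg2 (1.83) lead in the first comparison, and Ier3 (2.32) and Egr2 (2.05) in the second.

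The comparison of iB-Treg(B) with iB-Treg(A) asks what IL-33 and serotonin add to the co-culture. Ier3 was 4.98-fold (log2 fold change 2.32, SE 0.14, edgeR adjusted p = 3.0e-09) and Egr2 4.15-fold higher (2.05, SE 0.09, adjusted p = 1.2e-10) with the 2 factors. Zfp36 was 1.33-fold (0.41, SE 0.07, adjusted p = 0.00052), Egr1 1.28-fold (0.36, SE 0.08, adjusted p = 0.0037) and Btg2 1.21-fold higher (0.28, SE 0.08, adjusted p = 0.021). Egr3 went the other way, 1.25-fold lower (-0.32, SE 0.09, adjusted p = 0.017), so that the members of the Egr family moved in both directions. Ier2 (-0.14, SE 0.07) and Ier5 (-0.05, SE 0.08) did not pass the test. Thus 5 of 8 were called higher and 1 lower, beside 9.36% and 7.14% of all genes, and the median was 0.32 against -0.01 for all genes. These genes were chosen with their values known, and the p-values are no independent support. The calls of Btg2 and Egr3 were lost on leaving out any 1 of the 4 libraries. That of Egr1 was lost without the second iB-Treg(A) library (0.33) or the second iB-Treg(B) library (0.33), while Ier3, Egr2 and Zfp36 kept theirs in each case.

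Most markers of microglia and macrophages also rose from iB-Treg(A) to (B), where 5 of the 8 early genes were called higher, 1 lower and 2 not called. Their summed level over 15 genes was 4966 to 5181 CPM in iB-Treg(A), 8454 to 8489 in iB-Treg(B) and 7477 to 7979 in iB-Treg(C), and all 15 had counts in each of these groups. Between iB-Treg(A) and (B), 10 of the 15 rose and 1, Cx3cr1, fell, with a median log2 fold change of 0.96. From iB-Treg(B) to (C), 0 of the 15 were called higher and 2 lower, median -0.25. There the mean of Egr2 was level (116 and 115 CPM), and that of Ier3 went from 40.7 to 55.8 CPM without passing the test. C1qa, a complement subunit, went from 482 to 940 CPM, and Trem2, a lipid receptor of microglia, from 30.04 to 86.8 CPM. The 8 T cell and Treg markers summed to 3597 to 3752 CPM in iB-Treg(A) and 3434 to 3459 in iB-Treg(B), with 2 of 8 lower and a median of -0.05. The 12 astrocyte markers summed to 48.2 to 53.8 and 54.6 to 55.8 CPM. Macrophages are known to express Egr2, Ier3 and Zfp36 themselves, and the part of such cells in these differences was not tested. Of the 15 markers Lyz2 stood highest, at 2946 and 4524 CPM in iB-Treg(A) and (B), where Foxp3 stood at 296 and 242 CPM. The libraries were made from cells isolated by hCD2, and how far this removed other cells was not tested.

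Of transcripts known to be bound by tristetraprolin, 8 of 14 tested rose from iB-Treg(A) to (B) and 1 fell, with a median log2 fold change of 1.38. This list holds Ier3 itself. Il1b, an inflammatory cytokine of myeloid cells, went from 41.0 ± 2.25 to 197 ± 4.35 CPM, Cxcl2, a neutrophil chemokine, from 25.02 ± 1.44 to 93.2 ± 4.196 and Csf2, a myeloid growth factor, from 0.708 ± 0.174 to 2.39 ± 1.06. Between spleen and brain, 7 of the 14 were higher and 1 lower, with a median of 4.33, or 3.31 over the 10 with more than 3 counts in a group and with groups without a count at the floor. Csf2, Il1b and Ccl3, a chemokine, had no count in spleen and were at least 15.6-fold, 14.0-fold and 12.9-fold higher in brain, and Cxcl2 stood at 18.1 ± 10.9 against 0.142 ± 0.201 CPM. Of the 13 deadenylation and decay partners, 1 was called between iB-Treg(A) and (B), Cnot3, a subunit of the CCR4-NOT complex (101 ± 9.20 to 85.3 ± 1.95 CPM). Between spleen and brain 4 were higher and 3 lower, with Mapkapk2, the kinase that phosphorylates tristetraprolin, at 126 ± 11.2 in spleen and 286 ± 3.68 CPM in brain, and Mapk14 (p38) at 116 ± 9.97 and 81.0 ± 6.92. Ppp2ca and Ppp2cb, catalytic subunits of protein phosphatase 2A, stood at 259 ± 6.44 and 56.1 ± 0.168 in spleen and at 379 ± 12.9 and 77.0 ± 14.3 CPM in brain.

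**Figure D4:**
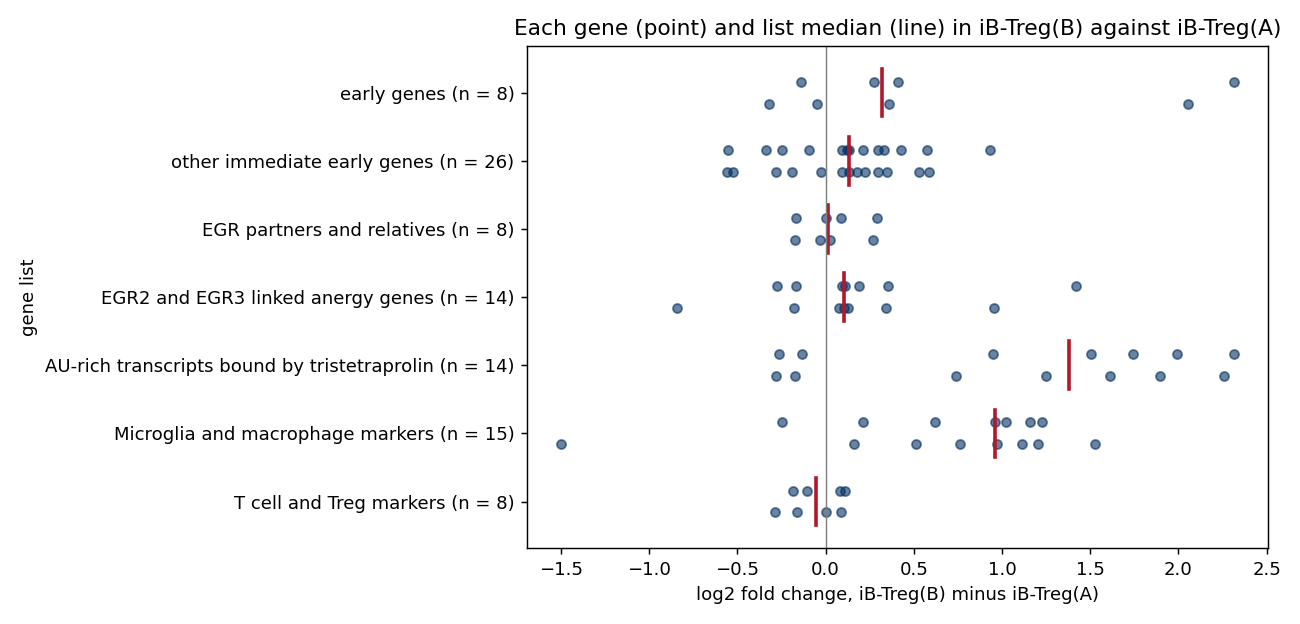
Log2 fold change (x axis, iB-Treg(B) minus iB-Treg(A)) of each tested gene of 7 lists (y axis). Points are genes and red lines are medians, 0.32 for the 8 early genes, 1.38 for transcripts bound by tristetraprolin, 0.96 for microglia and macrophage markers and -0.05 for T cell and Treg markers.

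The other immediate early genes were divided between iB-Treg(A) and (B), with 9 of 26 higher and 5 lower, median 0.13. Fosl2 went from 195 ± 1.58 to 372 ± 6.82 CPM, Atf3 from 38.9 ± 1.47 to 58.5 ± 3.15 and Fosb from 25.6 ± 1.04 to 38.1 ± 2.195. Klf2, a factor of quiescent T cells, went from 74.4 ± 1.38 to 50.4 ± 1.70. Of the relatives, 2 of 8 passed the test, Zfp36l1 (319 ± 7.13 to 390 ± 7.04 CPM) and Btg1 (749 ± 9.49 to 903 ± 15.1), both higher, with a list median of 0.01. Genes linked to Egr2 and Egr3 in anergy were 4 of 14 higher and 2 lower, median 0.11. Rnf128 (GRAIL, a ubiquitin ligase of anergic T cells) went from 8.14 ± 1.498 to 21.7 ± 2.49 CPM, Tnfrsf9 (4-1BB) from 375 ± 12.4 to 727 ± 4.10, Cdkn1a from 185 ± 1.53 to 237 ± 5.36 and Nrgn from 80.2 ± 8.02 to 44.7 ± 0.712. Between spleen and brain 10 of the 14 were higher and 2 lower, median 0.86. Nr4a1, an early nuclear receptor, stood at 68.0 ± 1.61 in spleen and 1165 ± 122 CPM in brain, Nrgn at 0.242 ± 0.0600 and 19.5 ± 1.32, Cdkn1a at 0.768 ± 0.522 and 27.9 ± 8.32, and Tnfsf11 (RANKL) at 37.9 ± 0.767 and 109 ± 18.1.

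Genes of T cell receptor activation were 3 of 15 higher and 4 lower from iB-Treg(A) to (B), median -0.09. Icos, a costimulatory receptor, went from 122 ± 0.00756 to 284 ± 1.44 CPM and Cd83 from 30.2 ± 0.180 to 80.3 ± 4.47, while Irf4 went from 178 ± 4.85 to 132 ± 2.97. Between spleen and brain 11 of 15 were higher and 3 lower, median 1.31, with Cd69, an early activation receptor, at 91.9 ± 9.54 and 438 ± 29.5 CPM, Nfkbid at 52.97 ± 2.12 and 267 ± 27.0, Pdcd1 (PD-1) at 72.7 ± 15.5 and 274 ± 76.4 and Tnfrsf4 (OX40) at 155 ± 19.5 and 537 ± 75.8. Feedback phosphatases and inhibitors of MAP kinase were 10 of 13 higher and 2 lower in brain than in spleen, median 1.84, with Dusp5 at 1198 ± 54.5 against 63.6 ± 3.83 CPM. Dusp8 and Spry2 had no count in spleen and were at least 14.8-fold and 10.9-fold higher in brain. From iB-Treg(A) to (B) only Dusp1 (110 ± 2.05 to 149 ± 1.84 CPM) and Spred2 (91.8 ± 5.75 to 69.8 ± 1.08) of the 13 passed the test, median -0.04.

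Serum response factor and its partners were 3 of 8 higher and 2 lower in brain, median 0.15, with Elk3 at 140 ± 11.4 against 80.3 ± 8.65 CPM and the kinases Map2k1 and Map2k2 at 91.1 ± 8.17 against 50.9 ± 0.0217 and 153 ± 28.6 against 114 ± 0.00389. Mrtfb, a coactivator, was lower (66.1 ± 9.66 against 98.9 ± 15.4). Targets of p53, the list to which Btg2 would belong by its known control, were 7 of 15 higher and 3 lower in brain, median 0.19. Gdf15 and Eda2r, without a count in either group, stand in it at 0, and the median of the other 13 was 0.26. Plk2, a kinase, stood at 87.1 ± 11.1 against 1.86 ± 1.79 CPM in spleen, Pmaip1 (Noxa), a death factor, at 235 ± 30.5 against 15.2 ± 0.547 and Phlda3 at 0.715 ± 0.323 against 2.82 ± 0.0359. From iB-Treg(A) to (B), 7 of 15 passed the test, all higher, median 0.27, with Plk2 going from 39.2 ± 2.65 to 72.1 ± 0.235 CPM, Zmat3 from 31.3 ± 2.77 to 41.7 ± 0.501, Phlda3 from 17.6 ± 0.884 to 23.5 ± 2.02 and Eda2r from 0.273 ± 0.0845 to 1.27 ± 0.287. Of the dissociation stress genes 4 of 15 were higher and 2 lower in iB-Treg(B), median 0.03, with Socs3 going from 112 ± 8.08 to 142 ± 0.725 CPM and Hsp90aa1 from 204 ± 5.22 to 162 ± 5.18.

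Adding CCL1 and CCL20 to IL-33 and serotonin asks whether the chemokines change the cells further. By edgeR 0 of the 8 genes were called higher and 0 lower in iB-Treg(C) against (B), beside 0.0462% and 0.115% of all genes. At an unadjusted p under 0.05 there were 2, Ier3 (log2 fold change 0.45, SE 0.12, adjusted p = 0.20) and Egr1 (0.26, SE 0.08, adjusted p = 0.36), and DESeq2 called 0. Both were called when the fit held only the 4 libraries compared, with 0.45 for Ier3 (adjusted p = 5.2e-05) and 0.25 for Egr1 (adjusted p = 0.00017). Over all genes that fit called 354 higher and 495 lower of 12142, against 6 and 15 of 13000 in the wider fit. The wider fit takes its spread from all 5 groups, and the cause of the difference was not tested. Egr2 differed by -0.01 (SE 0.08) and the other 5 genes by 0.06 to 0.14.

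The comparisons of co-cultured Tregs with spleen and brain ask how far the culture brings Tregs towards those of the brain. All genes together shifted, with a median of 0.14 for iB-Treg(A) against SP-Treg, 0.13 for iB-Treg(B) against SP-Treg and 0.14 for iB-Treg(B) against Ischemia-Treg. The values below are given as fitted, without this shift taken off. Btg2 was 4.77-fold lower in iB-Treg(A) (log2 fold change -2.25, SE 0.08) and 3.94-fold lower in iB-Treg(B) (-1.98, SE 0.08) than in SP-Treg, and 13.97-fold lower in iB-Treg(B) than in Ischemia-Treg (-3.80, SE 0.08). Zfp36 was 1.57-fold and 2.08-fold higher than in SP-Treg in iB-Treg(A) and (B), but 2.26-fold lower in iB-Treg(B) than in Ischemia-Treg. Ier2 was 1.82-fold and 1.65-fold higher than in SP-Treg and 1.48-fold lower than in Ischemia-Treg. Zfp36 and Ier2 thus lay between spleen and brain in co-culture, while Btg2 lay below both. Of the 8 relatives tested, 5 were lower and 1 higher in iB-Treg(A) than in SP-Treg, and 7 were lower and 1 higher in iB-Treg(B) than in Ischemia-Treg. Zfp36l2 stood at 250.8 ± 9.67 and 255 ± 5.17 CPM in iB-Treg(A) and (B), and Zfp36l1 at 319 ± 7.13 and 390 ± 7.04, below their levels in both spleen and brain. Egr1 was 1.43-fold higher in iB-Treg(B) than in SP-Treg and 1.34-fold lower than in Ischemia-Treg, and its difference in iB-Treg(A) (0.15, SE 0.09) did not pass the test.

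Egr3 was 1.42-fold higher in iB-Treg(A) than in SP-Treg (0.51, SE 0.10), while its differences in iB-Treg(B) from SP-Treg (0.19, SE 0.11) and from Ischemia-Treg (0.24, SE 0.11) did not pass the test. They did without SP-9 (0.33) and without Ischemia-4 (0.39), respectively, and the latter also with no low-count filter (0.27). Ier5 was 1.35-fold lower in iB-Treg(B) than in Ischemia-Treg and differed from SP-Treg by -0.02 and -0.07 in iB-Treg(A) and (B). From summed counts, Ier3 was 11.6-fold higher in iB-Treg(A) than in SP-Treg (95% exact counting interval 5.34 to 31.7) and 57.9-fold higher in iB-Treg(B) (26.6 to 158), and 37.1-fold higher in iB-Treg(B) than in Ischemia-Treg (18.8 to 86.0). These intervals cover the counting error of the low group only, and would not include a gap such as that at Egr2. With Egr2 counted as tested, 5 of 8 were called higher and 1 lower in iB-Treg(A) against SP-Treg, beside 40% and 32.7% of all genes. In iB-Treg(B) against SP-Treg they were also 5 and 1, beside 39.6% and 32.7%, and in iB-Treg(B) against Ischemia-Treg 2 and 5, beside 38.6% and 31%. Without Egr2 the calls higher number 4, 4 and 1. Microglia and macrophage markers differed here by far more, and all 15 were called higher in both iB-Treg groups than in SP-Treg, with medians of 8.07 and 8.73.

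The genes whose profile over the 10 libraries was most like the mean of the 8 (Pearson r of log2 CPM with a pseudocount of 1, among 8607 protein-coding genes) were Ifngr1 (r = 0.980), Vps37b (0.979), Fosl2 (0.977), Pde4d (0.974), Dusp16 (0.972), Rabep2 (0.969), Csrnp1 (0.968), Cebpb, Odc1 and Pcsk1 (each 0.967). All 10 stood lowest in SP-Tregs and highest in Ischemia-Tregs, with the co-cultured groups between. Ifngr1, a chain of the interferon-gamma receptor, was at 186 CPM in SP-Tregs, 1209 in Ischemia-Tregs and 574, 682 and 808 in iB-Treg(A), (B) and (C). Csrnp1, a nuclear protein of the early response, was at 48.7, 485, 196, 213 and 236 CPM. The mean profile includes Egr2 with its unread values. The 8 genes did not share 1 profile. Among pairs without Egr2, r over the 10 libraries ran from -0.78 (Egr3 with Btg2) to 0.92 (Egr1 with Zfp36). Likeness to the mean is therefore not likeness to each gene. The 10 libraries share groups and fall apart by mitochondrial rRNA share, so r is a description.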

How the data were processed

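The authors deposited a table of counts per gene and library, whole numbers that were not normalized, with an exonic length for each gene (a number of bases, used for per-kb levels). HISAT2 2.0.1, HTSeq 0.6.1 and mm10 stand in the submitters' processing notes, whereas the study's methods give HISAT2 with featureCounts on GRCm38, and the table itself does not say which was used. Spleen and brain counts run 172 rows past the last ID, and were moved back in 6 stretches that kept 24994 IDs and 83.0% to 91.9% of those counts. The other 30407 IDs were not used. Columns of the spleen and brain libraries carry numbers that match no replicate number, so each was mapped to its group only.

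In R 4.3.3, edgeR 4.0.16 (TMM, filterByExpr, quasi-likelihood test, 1 fit of the 10 libraries, 13000 genes) tested 6 comparisons. A gene was called at a Benjamini-Hochberg adjusted p under 0.05. DESeq2 1.42.0, other scaling, filters, gene sets and row assignments, each library left out and a block by replicate number were alternatives. The tests were checked on simulated counts. Means carry the SD of n = 2. Intervals and floors (3 counts over a group) cover counting error only. Symbols and loci came from GENCODE vM21, promoters from RefSeq. The 8 genes and all 10 lists were chosen with earlier results of these data known. The named genes were the 8, up to 4 called genes per list with the largest change in Ischemia-Treg against SP-Treg and iB-Treg(B) against (A), the 10 genes most like the 8 in profile, and cell type markers that checked the label or moved beside a result. Neighbours of Egr2 and Ier3, Myc, Nab2, Gdf15 and Eda2r were named after their values were seen.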

Additional observations from a re-analysis of the deposited data

How the results depend on the processing

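In the 4 comparisons with spleen or brain, the number of early genes called was the same under each alternative scaling, filter, tool, gene set and row assignment, except that 3 were higher in iB-Treg(B) than in Ischemia-Treg with no low-count filter. Leaving out SP-9 gave 4 higher in Ischemia-Treg and 6 higher in iB-Treg(B) against SP-Treg, and leaving out Ischemia-4 gave 3 higher in iB-Treg(B) against Ischemia-Treg. Between iB-Treg(A) and (B), a fit of only the libraries compared, or of only the 6 iB-Treg libraries (chosen after seeing the data), called 2 early genes lower, Ier2 joining Egr3. Leaving out each of their libraries in turn gave 3 to 4 early genes higher and 0 lower. Between iB-Treg(B) and (C), 1 early gene (Ier3) was called higher with no low-count filter, and 2 (Ier3 and Egr1) with only the libraries compared, with only the 6 iB-Treg libraries and with the replicate block. Over all genes, the fit of only the libraries compared called 1602 higher and 1383 lower for Ischemia-Treg against SP-Treg, 2181 and 1989 for iB-Treg(B) against (A) and 354 and 495 for iB-Treg(C) against (B). The 6 iB-Treg libraries alone gave 2175 and 1950, and 202 and 359. Leaving out single libraries gave 646 to 733 higher and 236 to 434 lower for iB-Treg(B) against (A), and 0 to 1 higher and 0 to 2 lower for iB-Treg(C) against (B). For the latter, RLE size factors gave 23 lower, protein-coding genes alone 23 lower, DESeq2 20 higher and 62 lower, and no low-count filter 49 and 81. The cause was not tested. With the replicate number as a block over the 6 iB-Treg libraries, 2082 genes were called higher and 1832 lower in iB-Treg(B) against (A), and 158 and 312 in iB-Treg(C) against (B). Same-numbered libraries deviated together with r = 0.04, -0.06 and 0.01, so the numbers were not taken as pairs. With 14 counts of Ier3 and 1 of Egr2 over the spleen and brain libraries, depth limits what can be said of them there.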

Other observations

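Egr2 and Ado formed 1 of 9 runs of neighbouring genes that were expressed in every iB-Treg library and had at most 3 counts over the 4 libraries from spleen and brain. The longest runs held 3 genes each. On chromosome 10, Pcmt1, Nup43 and Lats1 had 3, 0 and 3 counts, on chromosome 16, Trmt2a, Dgcr8 and Tango2 had 0, 1 and 0, and on chromosome 2, Gatm, AA467197 and Slc30a4 had 3, 0 and 0. Ehd1, a regulator of endosomes, had 0 counts in all 4 libraries and 183 to 213 CPM in the iB-Treg libraries. Its neighbour Cdc42bpg also had 0. Ccl2 with Ccl12 and Clec4d with Clec4e, known as genes of myeloid cells, formed runs too, with 2, 0, 0 and 0 counts. These genes were named after their values were seen, and the cause was not tested.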
